A study of Homo sapiens with 10 samples.

Results

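InsF, InsG and InsH are derivatives of GIST-T1, an established human cell line from a metastatic gastrointestinal stromal tumour (GIST), and were compared, as the mean of the 3 lines, with control GIST-T1 cells. The members are the 6 libraries labelled with these 3 line names and the 2 labelled control, chosen by label alone, and make up 8 of the 10 libraries of the series. The control carries the genotype label WT, and each derivative carries only its line name as genotype. A further derivative, InsE, with 2 libraries, was left out of the contrast and was used for the common estimate of spread and for a separate comparison below. All lines grew in the same serum-containing medium, no drug or other treatment is named, and polyadenylated RNA was sequenced. The series describes the derivatives as carrying a disrupted CTCF insulator in a line with intact succinate dehydrogenase. The labels do not say which site was edited in which line, whether a line is 1 clone, or whether separate cultures gave the 2 libraries of a group. The p-values therefore rest on the scatter between libraries that may differ only technically, and with a single control line the edit cannot be told apart from anything else that sets that line apart.

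CTCF is a DNA-binding protein that, together with the ring-shaped cohesin complex, holds the ends of chromatin loops, and a CTCF-bound insulator between an enhancer and a gene can keep the enhancer from acting on it. GISTs resemble the interstitial cells of Cajal, the pacemaker cells of the gut wall, and share with them the receptor tyrosine kinase KIT and the chloride channel ANO1. Most GISTs are driven by mutant KIT or PDGFRA, and those without succinate dehydrogenase often show high fibroblast growth factor (FGF) expression.

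The 2 control libraries held 30.8 and 20.1 M expected counts (M stands for 1000000), and the 6 line libraries held 11.1 to 42.5 M, with more in replicate 1 (22.9 to 42.5) than in replicate 2 (11.1 to 14.8) of each line. The first principal component (40.9% of the variance) separated the control (-48.8 and -45.3) from the lines. It also set replicate 1 of the lines (25.2 to 28.7) apart from replicate 2 (2.6 to 6.4), so it is not the difference from control alone. The second (21.4%) separated replicate 1 of all 3 lines (15.8 to 19.9) from replicate 2 (-30.7 to -24.3), with both control libraries at 12.2 and 12.7. Across 9889 genes, which are not independent replicates, the difference between replicates 1 and 2 correlated at 0.76 to 0.77 between the 3 lines and at 0.05 to 0.06 between the control and a line. The labels do not say what the replicate number stands for in the lines. The GIST markers KIT, ANO1, ETV1 and CD34 were at 508 to 1710 TPM in the control libraries, except ETV1 at 154 and 151. The leukocyte marker PTPRC, the endothelial marker PECAM1 and the glial marker SOX10 had 0 counts in the control libraries and 2, 1 and 3 counts over all line libraries. Each is 1 member of a list whose other members were in part detected. Summed control levels were 4.75 to 5.66 TPM for leukocyte, 25.7 to 27.3 for endothelial and 1.57 to 1.98 for neuron and glia markers. For epithelial markers they were 268 to 278 TPM.

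Of 15554 genes tested, 4498 changed in the mean of InsF, InsG and InsH (28.9%), 2187 of them higher and 2311 lower than in the control (edgeR adjusted p under 0.05). Most changes were small: the median size was 0.40 on the log2 scale, and 3089 of the 4498 genes changed by less than 1.5-fold. By 2-fold or more, 688 genes changed (4.42% of all tested), 470 higher (3.02%) and 218 lower (1.4%), and 316 of the 470 stood below 1 CPM (counts scaled by library size and not by gene length) in the control. By 4-fold or more, 167 genes rose and 39 fell, and by 8-fold or more 70 rose and 16 fell. Of the 688 genes, 610 had no overlap in TPM between the 6 line libraries and the 2 control libraries, where 35.5% of all tested genes had none (23.7% with the lines above, and 41.6% on the CPM scale).

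The count rested on both control libraries: leaving out control replicate 1 gave 1746 genes, leaving out control replicate 2 gave 1945, and summing the pair gave 1966. With a replicate block it was 6813. With a block for the line libraries only, whose numbers pair them, it was 8873, but there the control libraries were coded as replicate 1. That fit therefore set the replicate 1 level of the lines, and not the mean over both replicates, against the control. The split depended on the scaling. Library sizes alone gave 2943 rises and 1729 falls, and limma on log2(TPM + 1) gave 1739 rises and 782 falls.

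**Figure D1:**
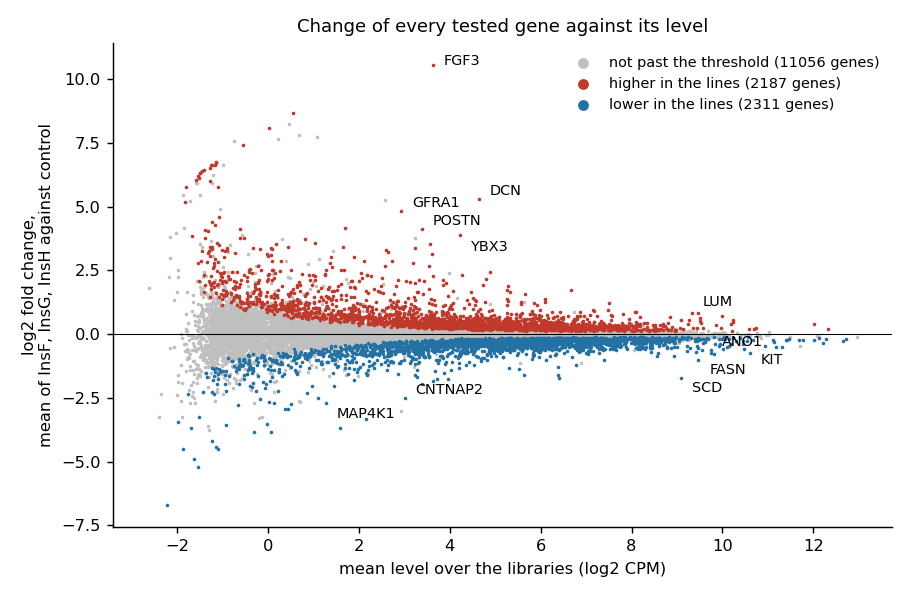
Log2 fold change of the mean of InsF, InsG and InsH against control (vertical axis) for each of the 15554 tested genes, against its mean level in log2 CPM (horizontal axis). Red points are the 2187 genes called higher, blue points the 2311 called lower, and the largest changes lie at low and middle levels; FGF3, with no control counts, has a fitted value that is no measure of its fold.

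FGF3, a secreted fibroblast growth factor that acts in embryonic development, was counted in every line library and in neither control library. Its gene lies on the minus strand of chromosome 11, from 69809969 to 69819024 (hg38). FGF3 had 1154 counts over the 6 line libraries and 0 over the 2 control libraries, and levels in the lines ran from 10.4 to 28.1 TPM with a median of 17.4. Against a floor of 3 counts over both control libraries (0.0608 CPM), the mean of the line libraries (9.2 CPM, range 5.21 to 14.3) was at least 151-fold higher (edgeR adjusted p = 1.76e-06). The call was lost when replicate 1 of the lines was used alone with the lines as 1 group (adjusted p = 0.0631).

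The promoter of FGF3 is shown with those of 3 other changed genes: EGR1 and ACTG2, which are described further below, and LSS, a gene of cholesterol synthesis. EGR1 and LSS fell, and ACTG2 rose. The fall of LSS was the smallest of the 15 called in the cholesterol list. Each window is the RefSeq sequence from 250 bases before to 50 bases after the start that RefSeq gives the gene (build GRCh38.p14), in the direction of transcription. For FGF3 and ACTG2 the start in GENCODE, from which the gene positions here come, lies outside the window, downstream of it for FGF3 and upstream for ACTG2. Capitals mark CArG boxes, the site of serum response factor, in the windows of FGF3, EGR1 and ACTG2, and in that of LSS the E-box CACGTG and the EGR site GCGTGGGCG; both strands were searched. FGF3 and ACTG2 were added to this display after their values were seen. Nor does LSS stand for its list: of 11 changed cholesterol genes with a window, 1 held the EGR site and 2 the E-box, LSS in both cases among them. The windows are FGF3 at chr11:69819367-69819666 (minus strand), EGR1 at chr5:138465229-138465528 (plus), ACTG2 at chr2:73892758-73893057 (plus) and LSS at chr21:46228725-46229024 (minus).
FGF3: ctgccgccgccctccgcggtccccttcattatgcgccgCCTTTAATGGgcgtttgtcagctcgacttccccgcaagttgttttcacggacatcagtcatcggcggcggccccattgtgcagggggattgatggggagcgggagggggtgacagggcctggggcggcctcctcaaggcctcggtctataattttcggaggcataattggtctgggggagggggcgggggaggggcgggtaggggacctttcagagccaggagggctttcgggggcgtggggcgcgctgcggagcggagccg
EGR1: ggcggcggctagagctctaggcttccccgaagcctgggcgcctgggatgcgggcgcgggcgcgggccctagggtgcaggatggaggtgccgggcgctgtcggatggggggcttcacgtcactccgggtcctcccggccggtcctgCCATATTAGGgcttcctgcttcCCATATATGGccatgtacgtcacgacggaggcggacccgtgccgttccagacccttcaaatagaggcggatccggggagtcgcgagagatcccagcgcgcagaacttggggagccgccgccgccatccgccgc
ACTG2: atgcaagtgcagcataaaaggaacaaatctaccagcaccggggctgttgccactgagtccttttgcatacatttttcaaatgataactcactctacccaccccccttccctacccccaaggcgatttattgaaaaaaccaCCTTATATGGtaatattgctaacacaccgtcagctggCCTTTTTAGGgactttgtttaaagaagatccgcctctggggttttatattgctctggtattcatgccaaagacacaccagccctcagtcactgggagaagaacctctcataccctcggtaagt
LSS: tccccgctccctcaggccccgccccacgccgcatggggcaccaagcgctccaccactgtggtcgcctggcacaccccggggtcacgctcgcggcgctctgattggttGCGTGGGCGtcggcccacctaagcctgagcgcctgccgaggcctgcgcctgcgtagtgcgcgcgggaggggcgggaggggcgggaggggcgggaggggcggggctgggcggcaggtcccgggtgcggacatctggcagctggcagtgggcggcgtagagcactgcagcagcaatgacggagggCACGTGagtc

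The window of FGF3 held 1 CArG box, that of EGR1 2 and that of ACTG2 2. Of all 35116 promoter windows, 1.29% held a CArG box, 7.26% the E-box and 0.795% the EGR site. The match shows letters only, and binding of these factors was not measured.

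The other genes of the FGF3 and ANO1 locus changed by far less, and all 10 tested genes there, FGF3 included, passed the threshold, against 28.9% of all genes. FGF4, with 0 control counts and 17 over the line libraries, was too low to test. MYEOV and FGF19, another FGF gene, had low levels: MYEOV stood at 0.14 and 0.17 TPM in the control and at 0.25 to 1.54 in the line libraries, and FGF19 at 0.07 and 0.03 against 0.11 to 0.34. Their rises of 2.08 ± 0.50 (log2 ± SE) and 2.01 ± 0.58 did not pass once control replicate 1 was left out (adjusted p = 0.18 and 0.126). FGF19 also missed the threshold without control replicate 2 (0.184), InsF replicate 2 (0.0506) or InsH replicate 1 (0.0892). ORAOV1 (now LTO1) rose by 0.47 ± 0.06 and CCND1, the cyclin D1 gene that overlaps its end on the other strand, fell by 0.31 ± 0.04, so reads in the overlap cannot be assigned without a strand setting.

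ANO1 fell from 520 and 508 TPM in the control libraries to 320 to 358 in the line libraries (median 333), with no overlap, by 0.74 ± 0.05 (edgeR adjusted p = 8.71e-06). SHANK2, a scaffold gene, stood at 0.92 and 2.68 TPM in the control and at 0.56 to 1.11 in the lines, and these groups overlap. Its fall of 1.02 was lost without control replicate 2 (adjusted p = 0.0728). FADD rose by 0.18, PPFIA1 fell by 0.23 and CTTN by 0.20, and without control replicate 1 these calls were lost (adjusted p = 0.308, 0.083 and 0.139). Those of FADD and CTTN were lost without control replicate 2 as well (0.0735 and 0.127), and that of FADD without replicate 1 of InsF, InsG or InsH (0.0535, 0.054 and 0.0545). The median over the 10 genes was -0.01, against 0.01 for all genes, and became 0.05 with library sizes alone and 0.11 with limma on log2(TPM + 1).

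Genes with large changes are described here among those with a mean log2 CPM of at least 1 and all 6 line libraries beyond both control libraries, so that the absence of overlap was a condition of choice; genes of lower level with larger changes are left aside. Behind FGF3 among these came rises of secreted matrix proteins, a neurotrophic co-receptor, a homeobox factor and a caveola coat protein. DCN (decorin), a small proteoglycan that binds collagen fibrils, stood at 1.42 and 1.67 TPM in the control libraries and at 43.8 to 59.8 in the line libraries (median 52.8). Every line library was far above both control libraries, and the rise was 5.31 ± 0.10 (edgeR adjusted p = 2.79e-09). GFRA1, the co-receptor through which GDNF signals, stood at 0.14 and 0.24 TPM in the control and at 3.30 to 5.15 in the lines (median 4.08), a rise of 4.83 ± 0.23 (edgeR adjusted p = 1.12e-06). PBX3, a homeobox cofactor of HOX proteins, stood at 0.23 and 0.31 TPM against 3.27 to 4.34 (median 3.83). It rose by 4.14 ± 0.29 (edgeR adjusted p = 1.17e-05).

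POSTN (periostin), a matrix protein of fibrous tissue, rose by 4.14 ± 0.15, from 0.46 and 0.60 TPM to 6.46 to 10.3 (median 7.61). YBX3, a cold shock domain protein that binds RNA, rose by 3.89 ± 0.12, from 2.44 and 2.48 TPM to 36.8 to 47.3 (median 41.4). CAV1 (caveolin 1), the coat protein of caveolae, rose by 3.39 ± 0.20, from 1.31 and 1.01 TPM to 7.75 to 15.1 (median 9.32). IGF2BP1, an oncofetal RNA-binding protein, rose by 3.59 ± 0.32, and its level remained low, at 0.53 to 1.25 TPM in the lines against 0.21 and 0.07. Taken as group means, these TPM give a smaller rise than the change fitted on counts. SULT1A1, a phenol sulfotransferase gene, rose by 3.52 ± 0.19, from 2.82 and 1.89 TPM to 23.8 to 35.2; it has near-identical copies, so the split of its reads is uncertain. The others of the 14 largest rises under these conditions were PDZRN4 (3.42), PSTPIP1 (3.31), the small heat shock protein gene HSPB8 (3.22), CAPN6 (3.15) and VSTM2A (3.03).

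**Figure D2:**
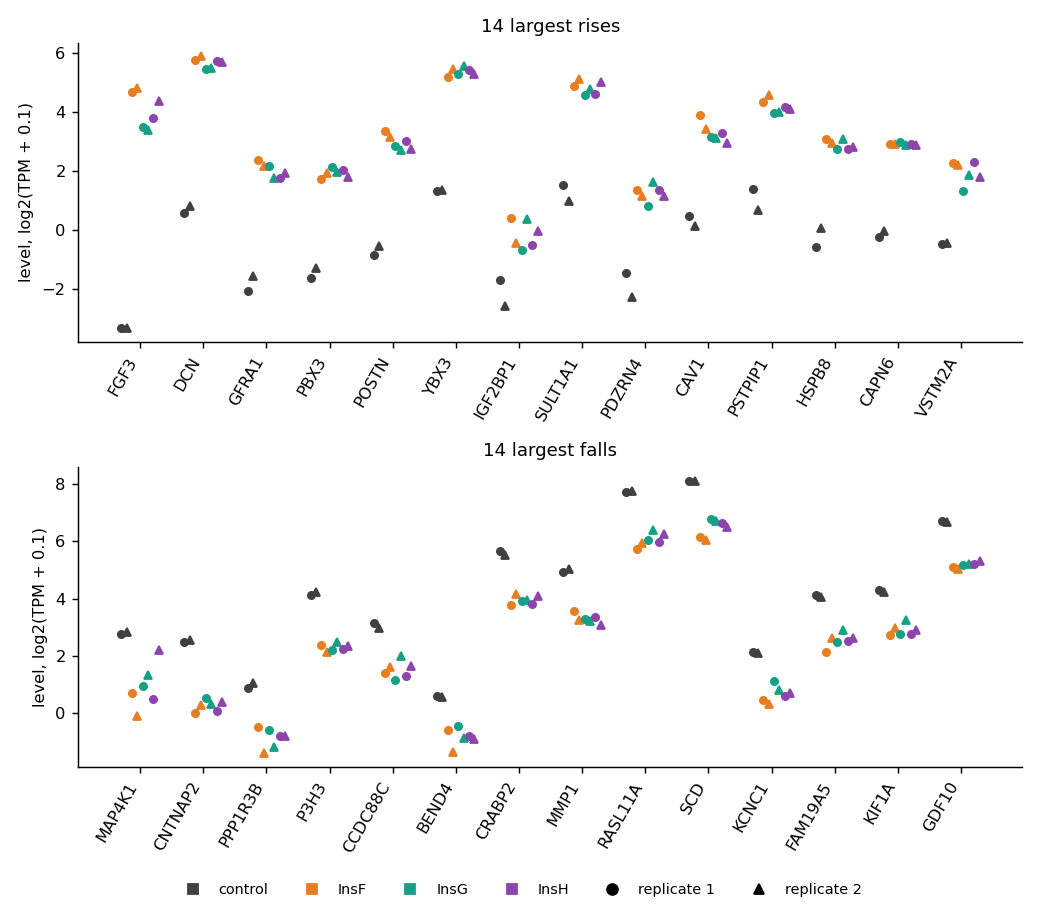
Level, as log2(TPM + 0.1), of the 14 genes with the largest rise (top) and the 14 with the largest fall (bottom), among genes with mean log2 CPM of at least 1, in each control, InsF, InsG and InsH library; circles are replicate 1 and triangles replicate 2. All 28 genes were chosen to have the 6 line libraries beyond both control libraries; DCN rose from 1.42 and 1.67 TPM to at least 43.8.

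Under the same conditions on level and overlap, the 14 largest falls ran from 1.59 to 2.72 on the log2 scale. MAP4K1, a kinase of the JNK pathway best known from blood cells, stood at 6.72 and 7 TPM in the control libraries and at 0.83 to 4.55 in the line libraries (median 1.69). It fell by 2.72 ± 0.26 (edgeR adjusted p = 7.79e-05), with a wide spread among the line libraries. CNTNAP2, a neurexin family cell adhesion gene, fell by 2.5 ± 0.11, from 5.50 and 5.79 TPM to 0.90 to 1.35 (median 1.13). PPP1R3B, a glycogen-targeting subunit of protein phosphatase, fell by 2.01 ± 0.21 from 1.74 and 2 TPM to 0.28 to 0.61. P3H3, which belongs to the collagen prolyl hydroxylase family, fell by 1.94 ± 0.09, from 17.4 and 18.6 TPM to 4.32 to 5.46.

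Some genes with large falls had high levels in the control. RASL11A, a small GTPase gene, fell from 210 and 215 TPM to 53.3 to 84.2 (median 64.6), a change of -1.73 ± 0.06. GDF10, a ligand of the TGF-beta superfamily, fell from 104 and 101 TPM to 32.6 to 39.8 (median 36.5), a change of -1.59 ± 0.05. SCD, the stearoyl-CoA desaturase that makes monounsaturated fatty acids, fell from 277 and 275 TPM to 66.6 to 111 (median 95.1), a change of -1.72 ± 0.03 (edgeR adjusted p = 2.79e-09). CRABP2, a retinoic acid carrier, fell by 1.77 and MMP1, the interstitial collagenase, by 1.75. CCDC88C (-1.82), BEND4 (-1.79), KCNC1 (-1.70), FAM19A5 (-1.61) and the axonal motor gene KIF1A (-1.60) make up the rest of the 14.

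Genes of GIST and of the interstitial cell of Cajal were lower in part. Of the 14 such genes tested, 6 fell and 2 rose (GPR20 and PDGFRA), where 14.9% of all genes fell and 14.1% rose. Their median of -0.13 kept its sign under every scaling tried. KIT stood at 724 and 716 TPM in the control and at 407 to 507 in the lines (median 460), with no overlap, and fell by 0.75 ± 0.04 (edgeR adjusted p = 3.98e-06). PRKCQ, a protein kinase C used to diagnose GIST, fell by 0.44 ± 0.07 and the mesenchymal transcription factor FOXF1 by 0.53 ± 0.08. ETV1, a transcription factor needed in GIST cells, stood at 135 to 164 TPM in the lines against 154 and 151 in the control, and did not pass (log2 -0.10 ± 0.06, edgeR adjusted p = 0.226).

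Genes downstream of receptor signalling moved both ways. Of 17 tested feedback and output genes of the ERK pathway, 7 fell and 2 rose, against 14.9% lower and 14.1% higher among all genes. DUSP6, the phosphatase that switches ERK off in the cytoplasm, stood at 104 and 109 TPM in the control and at 40.9 to 46.7 in the lines (median 43.2). It fell by 1.22 ± 0.04 (edgeR adjusted p = 2.79e-07), and the groups were well apart. SPRY4, a Sprouty family inhibitor of the same pathway, fell by 0.85 ± 0.06, from 170 and 173 TPM to 96.7 to 103. SPHK1, a lipid kinase, fell by 1.35 ± 0.23, whereas DUSP5, a nuclear ERK phosphatase, rose by 0.88 ± 0.09, from 4.89 and 4.67 TPM to 7.92 to 10.3. The list's median was -0.18 and became 0.01 with limma on log2(TPM + 1).

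The immediate early transcription factors, which serum and growth factors switch on within minutes, gave 3 rises and 4 falls among 11 tested. Of all genes, 14.1% rose and 14.9% fell. EGR1 stood at 15.7 and 15.4 TPM in the control and at 6.49 to 8.19 in the lines (median 7.04), with no overlap, and fell by 1.22 ± 0.10 (edgeR adjusted p = 3.32e-05). JUNB, an AP-1 subunit, fell by 1.13 ± 0.11, from 10.3 and 10.8 TPM to 4.68 to 5.62, and FOS, its AP-1 partner, by 1.70 ± 0.28, from 3.37 and 2.61 to 0.14 to 1.55. EGR3 rose by 2.51 ± 0.35 at a low level, from 0.06 and 0.16 TPM to 0.44 to 0.84. The median of the 11 was 0.45, and -0.08 with replicate 1 of the lines alone. Of the 7 changed members, 6 had a promoter window in the RefSeq table, and EGR1 alone among them held a CArG box.

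Receptors and ligands on the cell surface also differed. Of 14 other receptor tyrosine kinase genes tested, 7 rose and 2 fell, against 14.1% higher and 14.9% lower among all genes. DDR2, a receptor for collagen, rose by 1.39 ± 0.07, from 7.85 and 5.58 TPM to 14.8 to 22.7 (median 17.2), and PDGFRB, a PDGF receptor, by 0.56 ± 0.08, from 9.04 and 10.5 to 11.7 to 18.3. ERBB2 rose by 0.57 ± 0.10, but not past the threshold when control replicate 1 was omitted (adjusted p = 0.0549). Of 7 FGF receptor and co-receptor genes, 3 fell and 1 rose. FGFRL1, a receptor without a kinase, fell by 0.63 ± 0.08, and FGFR4 by 0.79 ± 0.14, a call lost with limma on log2(TPM + 1) (adjusted p = 0.174). The other changes there, FGFR2 (-0.12) and FGFR3 (0.47), did not pass with control replicate 1 left out (adjusted p = 0.272 and 0.172), control replicate 2 (0.116 and 0.268) or InsF replicate 1 (0.0524 and 0.063). That of FGFR3 was also lost without InsF replicate 2 (0.0829), InsG replicate 1 or 2 (0.067 and 0.0744) or InsH replicate 1 (0.0974). Of 7 genes of the GDNF family 2 were called, a share (28.6%) near that of all genes (28.9%): GFRA1 rose and its ligand GDNF fell by 0.81 ± 0.05, from 31.9 and 31.8 TPM to 17.8 to 23.3 (edgeR adjusted p = 3.87e-06).

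Genes of cholesterol and fatty acid synthesis were lower in the lines. Cells make both lipids from acetyl-CoA, and the SREBP transcription factors raise the genes of both pathways when sterols are scarce. Of 23 tested genes of cholesterol synthesis and uptake, 15 fell and none rose, with a median of -0.32, where 14.9% of all genes fell. The falls numbered 8 without control replicate 1 and 10 without control replicate 2. MSMO1, a sterol oxidase, stood at 83.8 and 80.2 TPM in the control and at 36.4 to 60.3 in the lines (median 48.0), and fell by 0.82 ± 0.07 (edgeR adjusted p = 4.33e-05). SQLE (squalene epoxidase) fell by 0.58 ± 0.04 and DHCR7, the last reductase of the pathway, by 0.56 ± 0.06. In none of these 3 genes, which were picked for the size of their falls, did the groups overlap. Among all tested genes, 11.8% had every line library below both control libraries in TPM.

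Of 15 tested genes of fatty acid synthesis and desaturation, 10 fell and none rose, with a median of -0.24, again beside 14.9% lower among all genes. FASN (fatty acid synthase) stood at 288 and 301 TPM in the control and at 143 to 163 in the lines (median 154). It fell by 1.00 ± 0.06 (edgeR adjusted p = 2.44e-06). MLXIPL, the carbohydrate response factor ChREBP, fell by 1.58 ± 0.15, from 9.24 and 11.8 TPM to 3.08 to 5.61, and the desaturase FADS1 by 0.74 ± 0.05, from 18.3 and 16.3 to 10.5 to 13.4. Without a control library 7 of the 10 falls were called in either case. The falls of these lipid lists kept their direction under library sizes alone (14 and 8 lower, none higher) and limma on log2(TPM + 1) (10 and 7 lower, none higher). Of the 15 changed cholesterol genes, 11 had at least 1 of 15 promoter windows, and CACGTG was in those of INSIG1 and LSS. The sterol response element core TCACNCCAC was in none of the windows. Since only 1.13% of all windows held it, so few windows would mostly hold none, and its absence says nothing about these genes.

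Most called collagen, matricellular and caveola genes were higher, and contractile genes and matrix proteases moved both ways. In bulk RNA, more cells of a type and more RNA per cell cannot be told apart. Of 17 tested small leucine-rich and matricellular genes, 11 rose and 1 fell, with a median of 0.84, where 14.1% of all genes rose, and 11 rose without either control library. Besides DCN and POSTN, SMOC2, a calcium-binding matrix protein, rose by 2.69 ± 0.13, from 1.62 and 1.34 TPM to 8.44 to 12.4 (median 10.4). WISP1 (CCN4), a matricellular protein of the CCN family, rose by 2.44 ± 0.07, from 3.5 and 2.51 TPM to 15.3 to 25.8 (median 18.5; edgeR adjusted p = 5.14e-08). Both genes, picked for the size of their rises, were higher in all 6 line libraries than in either control library. In TPM this held for 23.7% of all tested genes.

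Of 26 tested collagen chain genes, 13 rose and 1 fell, with a median of 0.33, against 14.1% higher among all genes; 7 rose without control replicate 1 and 8 without control replicate 2. COL5A2, a chain of fibrillar collagen V, rose by 2.15 ± 0.07, from 2.09 and 2.25 TPM to 8.27 to 9.77 (median 9.14; edgeR adjusted p = 1.13e-07). COL14A1, a collagen on the surface of fibrils, rose by 1.63 ± 0.14, from 0.87 and 1.09 TPM to 2.64 to 3.25, and COL21A1 by 2.14 ± 0.26, from 0.20 and 0.32 to 1.34 to 3.08. Matrix proteases and their inhibitors gave 5 rises and 5 falls among 17 tested, beside 14.1% higher and 14.9% lower among all genes. MMP1 fell from 30.2 and 32.6 TPM to 8.43 to 11.8, while ADAMTS4, which cleaves the proteoglycan aggrecan, rose by 0.71 ± 0.07, from 5.75 and 4.78 TPM to 9.18 to 10.8. MMP10, a stromelysin, fell by 2.34 ± 0.35, and missed the threshold when control replicate 1 was omitted (adjusted p = 0.0566).

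Of 7 tested caveola genes, 5 rose and none fell. Of all genes, 14.1% rose and 14.9% fell, and the counts of contractile genes below stand beside the same shares. CAV2, the partner of CAV1, rose by 2.37 ± 0.19, from 0.32 and 0.69 TPM to 1.84 to 4.01. SDPR (now CAVIN2) rose by 1.21 ± 0.10, and EHD2, an ATPase at the caveola neck, by 0.67 ± 0.09. Of 13 tested genes of smooth muscle contraction, 7 rose and 3 fell (SYNM, SMTN and CALD1), with a median of 0.51; 5 rose and 1 fell without either control library. Their summed level overlapped, at 2971 to 2989 TPM in the control and 2878 to 3172 in the lines. ACTA2, smooth muscle alpha actin, rose by 0.86 ± 0.06, from 239 and 243 TPM to 388 to 546 (median 439; edgeR adjusted p = 1.45e-05). TAGLN, an actin-binding protein, rose by 1.77 ± 0.17, from 7.83 and 7.61 TPM to 21.0 to 46.4 (median 29.3). ACTG2, the gamma actin of gut muscle, rose by 1.56 ± 0.12, from 5.53 and 5.39 TPM to 12.2 to 25.3 (median 16.5). MYOCD (myocardin), a coactivator of serum response factor, was at 0.02 TPM in both control libraries and at 0.15 to 0.48 in the lines. Its rise of 3.77 ± 0.41, with an SE that is only approximate at such a control level, was lost with limma on log2(TPM + 1) (adjusted p = 0.0709). Of the 10 changed members, 8 had a promoter window, and ACTG2, SMTN and SRF held a CArG box.

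Of 9 listed fibroblast markers, 7 were tested, 6 rose and none fell, where 14.1% of all genes rose. DCN, LUM, COL1A1 and COL3A1 among the 6 are members of the matrix and collagen lists above. The others belong to the receptor and GIST lists, so these rises are no separate observation. The summed level of the markers was 2277 to 2296 TPM in the control and 2927 to 3086 in the lines. LUM (lumican), which also belongs to the matrix list, stood at 423 and 420 TPM in the control and at 660 to 919 in the lines, and COL3A1 at 1003 and 1009 against 1330 to 1472. THY1, a surface marker, stood at 805 and 819 TPM against 649 to 759 and did not pass (edgeR adjusted p = 0.066). The lists overlap, the part of other cell types in the result was not tested, and FAP and DPT, the other fibroblast markers listed, were too low to test.

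**Figure D3:**
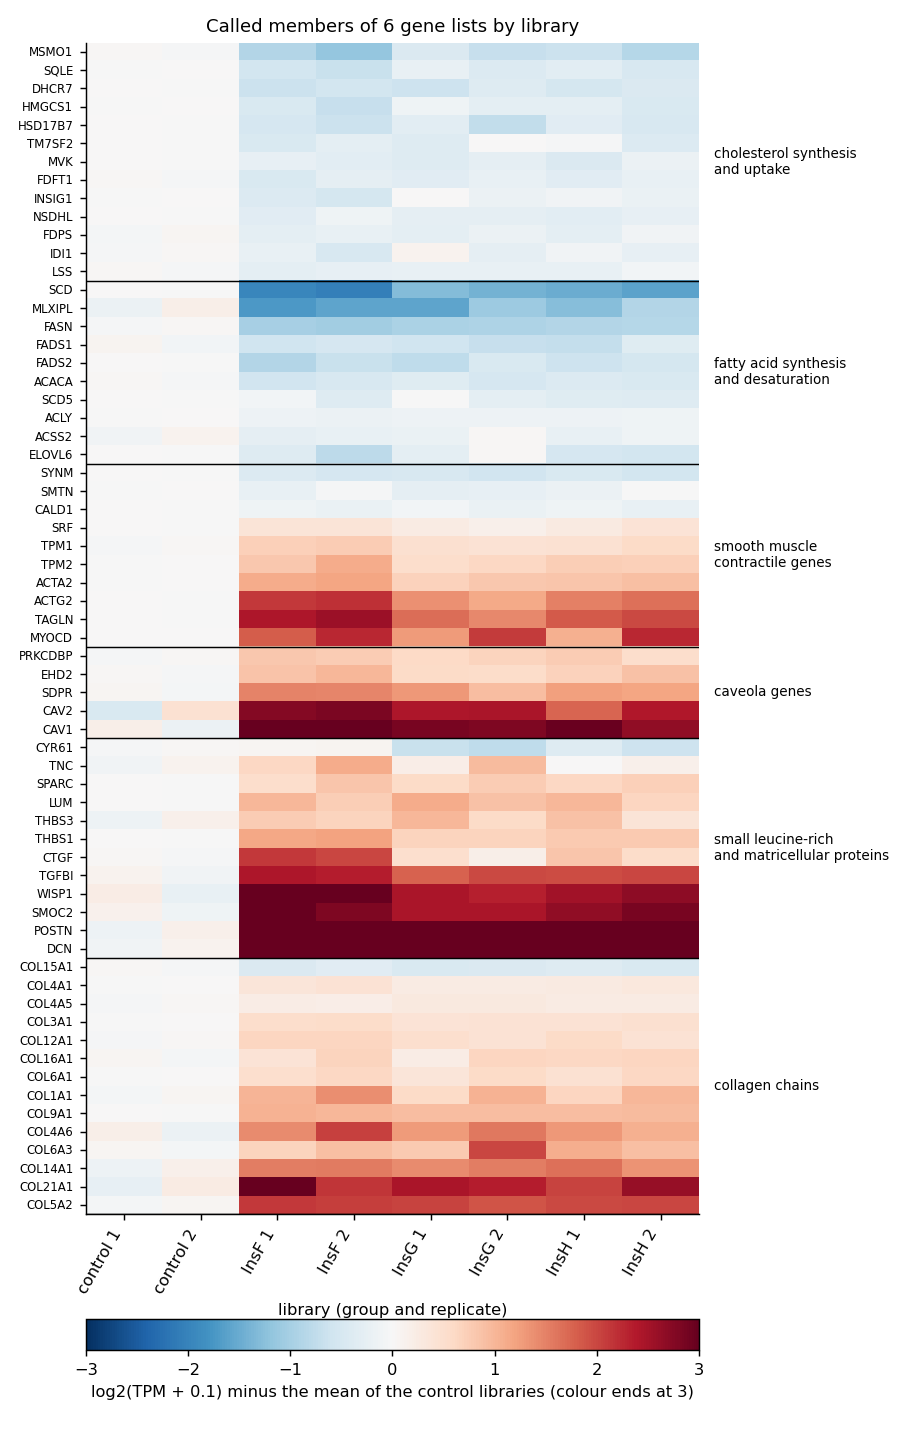
Level of called members of 6 gene lists (rows) in the 8 libraries (columns), as log2(TPM + 0.1) minus the mean of the control libraries, with red above and blue below the control and colours ending at 3. The cholesterol and fatty acid genes drawn are blue in nearly all line libraries, and most caveola, contractile, matrix and collagen genes drawn are red. The genes were chosen as called in these same libraries, so their colours follow in part from that choice. Members not called are left out, among them 8 of the cholesterol, 5 of the fatty acid and 12 of the collagen list.

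Developmental regulators changed in both directions, and the counts of this and the next paragraphs stand beside 14.1% of all genes higher and 14.9% lower. Of 28 tested HOX genes, which set position along the body axis, 8 fell and 5 rose, and their median of -0.09 turned to 0.03 under limma on log2(TPM + 1). HOXD13 stood at 22.7 and 23.5 TPM in the control and at 8.65 to 10.7 in the lines (median 10.2), with no overlap, and fell by 1.32 ± 0.07 (edgeR adjusted p = 1.35e-06). HOXA13, its paralogue, fell by 1.39 ± 0.10, from 5.31 and 5.55 TPM to 1.70 to 2.69. HOXA3 rose by 1.28 ± 0.26, a call lost without either control library (adjusted p = 0.0763 and 0.0531). Of the 8 PBX, MEIS and PKNOX genes, PBX3 rose, MEIS1 rose by 0.16 and MEIS2 fell by 0.30. MEIS1 did not pass with control replicate 1 or 2 left out (adjusted p = 0.105 and 0.211), nor did MEIS2 with control replicate 1 left out (0.0542).

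Retinoid genes gave 5 rises and 3 falls among 13 tested. RDH10, which makes retinal from vitamin A, rose by 1.72 ± 0.06, from 21.6 and 21.0 TPM to 60.4 to 90.7 (median 74.3; edgeR adjusted p = 2.82e-07). CRABP2 fell from 51.0 and 45.7 TPM to 13.5 to 17.8 (median 15.2). Of 26 TGF-beta and BMP pathway genes, 5 rose and 6 fell, among them the ligands BMP7, up by 1.95 ± 0.22 from 0.95 and 0.84 TPM to 2.58 to 3.76, and BMP2, down by 0.92 ± 0.08 from 9.10 and 8.94 to 4.71 to 5.59. Of 28 WNT pathway genes, 6 rose and 8 fell. The secreted antagonist SFRP4 rose by 1.77 ± 0.12 and DKK2 by 0.74 ± 0.09, and LGR5, a receptor that raises WNT signalling, fell by 1.10 ± 0.14. Of 33 axon guidance genes, 8 rose and 8 fell, and the repellent SLIT2 rose by 1.18 ± 0.07, from 7.09 and 6.92 TPM to 15.1 to 20.2.

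Among 10 oncofetal RNA-binding and growth genes, 4 rose and 3 fell. IGF2BP3 rose by 1.65 ± 0.10, from 2.27 and 2.87 TPM to 5.03 to 11. Of 8 junction genes, 4 rose and 1 fell: CDH11, the mesenchymal cadherin, rose by 0.38 ± 0.04, from 177 and 181 TPM to 231 to 279, and DSP (desmoplakin), the anchor of desmosomes, fell by 1.32 ± 0.14, from 1.22 in both control libraries to 0.39 to 0.69. HSPB8 rose from 0.58 and 0.97 TPM to 6.68 to 8.57. Of the 6 small heat shock genes tested, including the co-chaperone BAG3, 2 rose and 2 fell, and BAG3 fell by 0.68 ± 0.07, from 52.6 and 53.7 TPM to 32.4 to 37.2.

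Interferon-stimulated genes gave 8 rises and 1 fall among 29 tested, with a median of 0.19, and the share called (31%) was near that of all genes (28.9%). IRF1, a transcription factor of the interferon response, stood at 12.7 and 13.8 TPM in the control and at 26.1 to 30.7 in the lines (median 28.5), and rose by 1.14 ± 0.06 (edgeR adjusted p = 2.79e-06). IFIT1, which binds foreign RNA, rose by 0.97 ± 0.07, from 13.2 and 13.1 TPM to 24.8 to 30.7. The rises numbered 6 without control replicate 1 and 5 without control replicate 2.

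Of 13 mitochondrially encoded protein genes, 10 fell and none rose, with a median of -0.25, where 14.9% of all genes fell. Their summed level was 115400 to 116300 TPM in the control and 102700 to 108900 in the lines, without overlap. MT-CO3, a subunit of cytochrome oxidase, fell by 0.51 ± 0.04 (edgeR adjusted p = 9.71e-06). Near-identical nuclear copies make the assignment of reads to these genes uncertain.

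Of 34 replication and mitosis genes, 9 fell and none rose, a share called (26.5%) near that of all genes (28.9%), and most falls depended on the setting: 2 were called without either control library, and library sizes alone gave 3 higher and 4 lower. MKI67, the Ki-67 gene of cycling cells, fell by 0.63 ± 0.04, from 167 and 163 TPM to 102 to 120 (median 109; edgeR adjusted p = 9.54e-06). Of 28 glycolysis and hypoxia genes, 3 rose and 5 fell, and hexokinase HK2 fell by 0.50 ± 0.05. Among 26 ATF4 and amino acid supply genes, 3 rose and 4 fell, and ALDH1L2, a mitochondrial folate enzyme, fell by 0.43 ± 0.05. Of 21 p53 targets, 3 rose and 3 fell, and BTG2 rose by 0.40 ± 0.05. These 3 lists had medians of -0.09, -0.02 and -0.07, and shares called of 28.6%, 26.9% and 28.6%, near the 28.9% of all genes.

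Of 18 CTCF and cohesin genes, 1 rose and 2 fell, a share of 16.7% against 28.9% of all genes. CTCF stood at 59.0 and 56.7 TPM in the control and at 51.9 to 55.3 in the lines, a fall of 0.21 ± 0.04 that did not pass with control replicate 1 left out (adjusted p = 0.101). CTCFL, the germline paralogue of CTCF, rose by 1.27 ± 0.12, from 1.86 and 1.53 TPM to 3.76 to 5.03. NIPBL, which loads cohesin, fell by 0.33 ± 0.06, a call lost with limma on log2(TPM + 1) (adjusted p = 0.057). Of 15 succinate dehydrogenase and DNA methylation genes, 4 fell (26.7%), and 2 rose and 2 fell with library sizes alone. UHRF1, which guides DNA methylation after replication, fell by 0.39 ± 0.05, and the demethylating enzyme TET1 by 0.47 ± 0.06.

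Summed levels of leukocyte, neuron and glia, and endothelial markers were below 30 TPM in every library, and those of epithelial markers were higher. Of the 10 leukocyte and 9 neuron and glia markers, 2 of each were high enough to test and none passed; their summed levels were 4.75 to 5.66 and 1.57 to 1.98 TPM in the control and 3.94 to 6.67 and 1.73 to 2.64 in the lines. Of 8 endothelial markers 3 were tested, with sums of 25.7 to 27.3 and 23.9 to 29.6 TPM, and CDH5 rose by 1.01 ± 0.31 at a level of at most 0.56 TPM, a call lost without control replicate 1 or 2 (adjusted p = 0.186 and 0.208), InsF replicate 1 or 2 (0.0721 and 0.0689), InsG replicate 2 (0.0655) or InsH replicate 1 or 2 (0.0779 and 0.0571). Of 9 epithelial markers 3 were tested, with sums of 268 to 278 and 208 to 255 TPM, and the keratin KRT18 fell by 0.33 ± 0.08, a call lost without control replicate 1 or 2 (adjusted p = 0.0905 and 0.123).

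**Figure D4:**
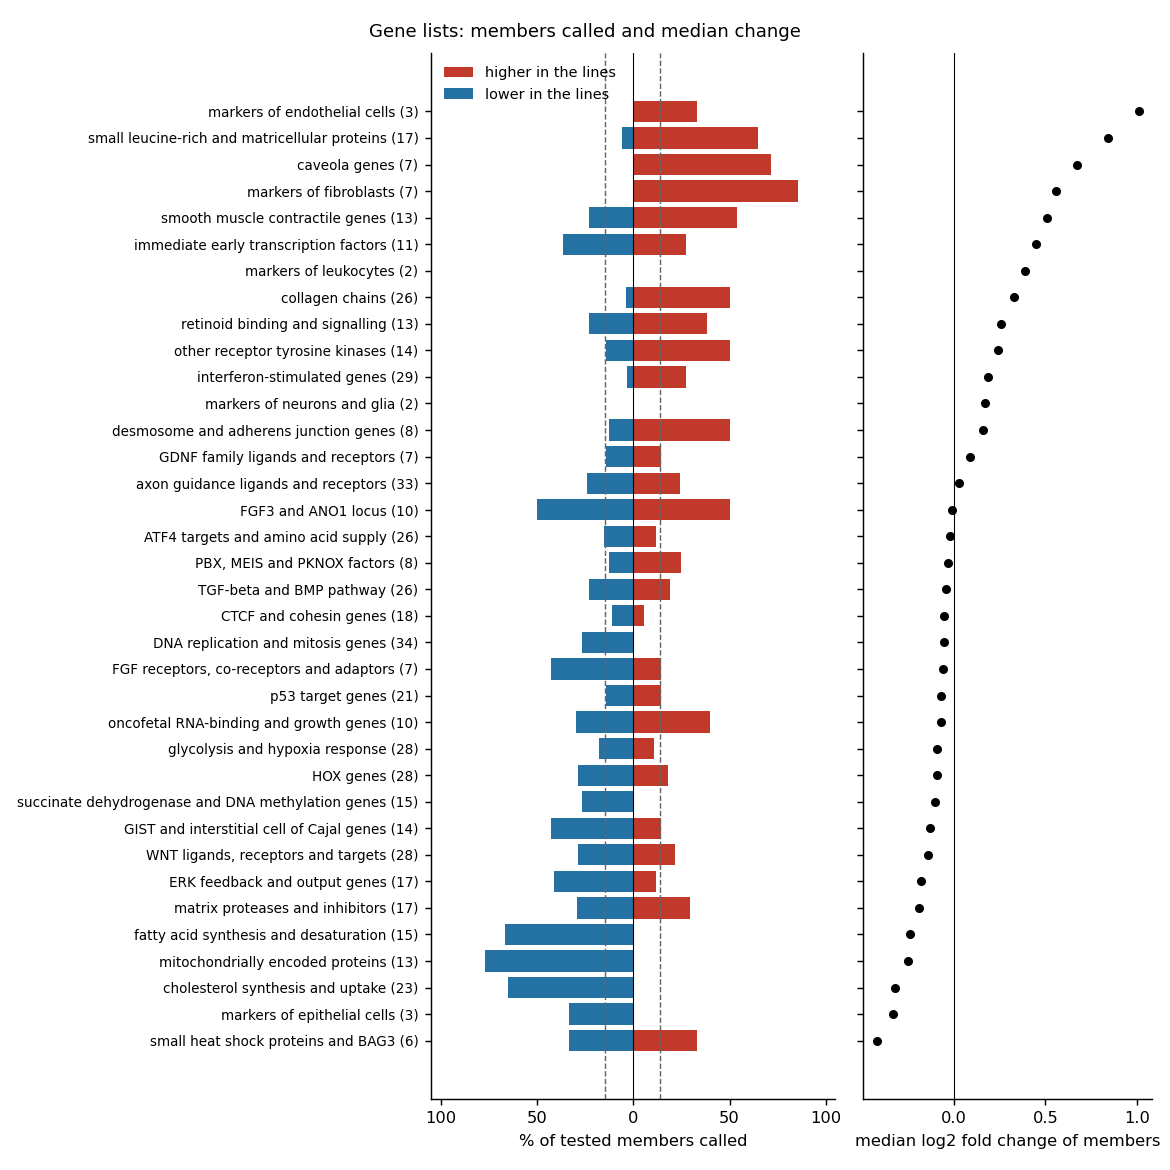
Share of tested members called higher (red, right) or lower (blue, left) in the mean of the 3 lines for each of 36 gene lists, with the number tested in brackets, beside the median log2 fold change of the members. Dashed lines mark the shares among all genes, 14.1% higher and 14.9% lower. The cholesterol, fatty acid and mitochondrial lists hold falls and no rises. So do the lists of replication and mitosis, of succinate dehydrogenase and DNA methylation, and of epithelial markers, with smaller shares called. The caveola, fibroblast and endothelial lists hold rises and no falls.

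The number of genes that differed among InsF, InsG and InsH depended on the replicate number, which pairs the line libraries. Of the 15554 genes, 14 differed among the 3 lines without a block (0.09%), 436 with a replicate block over all libraries, and 4310 of 15173 with a block within the 8 line libraries, InsE included. SCD stood at -2.08 in InsF, -1.45 in InsG and -1.62 in InsH on the log2 scale (edgeR adjusted p = 0.00198 among the lines). CTGF (CCN2), a matricellular target of YAP, stood at 2, 0.29 and 0.64 (edgeR adjusted p = 0.000703). AMOTL2, another YAP-linked gene, stood at 0.20, -0.47 and -0.40, the matrix gene SVEP1 at 2.46, 1.53 and 1.84, and IGFBP3, which binds insulin-like growth factors, at 2.95, 1.44 and 1.79 (edgeR adjusted p = 0.00423 for each). FLT1, a VEGF receptor, stood at 2.46, 1.11 and 1.5 (adjusted p = 0.00845). For all 6 genes InsF had the highest value or, for SCD, the lowest.

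The count without a block also rested on single libraries. Without InsF replicate 1 or InsF replicate 2 the count was 1, and without either control library it was 6. A call in the mean of the lines is thus no measure of equality between them: CTGF and IGFBP3 passed in the mean, and with the lines as 1 group and 1 replicate number at a time they did not (adjusted p = 0.296 and 0.317 for CTGF, 0.116 and 0.0893 for IGFBP3). The fall of AMOTL2 in the mean (-0.22) was lost without control replicate 1 or 2 (adjusted p = 0.0612 and 0.108).

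The mean of the 3 lines was also set against InsE, the derivative left out of the contrast. Of the 15554 genes, 3762 differed (24.2%), 1985 higher and 1777 lower in InsF, InsG and InsH, and 1800 of the 4498 genes changed against control were among them (40%). The line libraries enter both comparisons. Limma on log2(TPM + 1) gave 2062 higher genes and 640 lower ones, and the count was 5942 with a replicate block and 7695 with a block within the 8 line libraries. Without InsE replicate 1 it was 1956 and without InsE replicate 2 it was 2208.

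Several of the leading rises were far lower in InsE than in the other lines. DCN stood at 3.42 and 2.53 TPM in the InsE libraries, which is 3.90 ± 0.09 below the mean of the other lines on the log2 scale (edgeR adjusted p = 9.66e-09). PBX3 stood at 0.23 and 0.49 TPM (difference 4.11 ± 0.31), GFRA1 at 0.28 and 0.10 (3.71 ± 0.21) and WISP1 at 1.04 and 1.59 (3.76 ± 0.08). ABCC9, a regulatory subunit of potassium channels, stood at 0.12 and 0 TPM in InsE, at 0.48 and 0.54 in the control and at 1.11 to 2.62 in the lines, and differed from InsE by 4.41 ± 0.40. Among these, WISP1 and ABCC9 had lower TPM in both InsE libraries than in either control library.

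Other genes were lower in InsF, InsG and InsH than in InsE. FGF3 stood at 69.9 and 62.7 TPM in InsE, above every library of the other lines (difference -2.10 ± 0.11, edgeR adjusted p = 6.07e-06). EGR1 stood at 21.4 and 24.4 TPM in InsE, 15.7 and 15.4 in the control and at most 8.19 in the lines, so that the lines fell below both (difference -1.77 ± 0.10, edgeR adjusted p = 4.68e-06). The ubiquitin-conjugating enzyme gene UBE2E2 (-1.62), the selenium-binding protein gene SELENBP1 (-1.64) and the Nogo receptor homologue RTN4RL2 (-1.67) stood at 23.2 to 31.4, 5.81 to 8.36 and 7.41 to 7.53 TPM in InsE. In the control they stood at 14.7 to 14.9, 4.11 to 4.75 and 5.10 to 5.16 TPM, and in the lines at 7.96 to 13.7, 2.17 to 2.73 and 1.62 to 4.59.

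Along the chromosomes, 4 of 259 windows of 10 Mb with at least 20 tested genes stood out with medians of 0.42 or more, all on the distal long arms of chromosomes 13 and 4. Between 90 and 100 Mb of chromosome 13 the median of 26 genes was 0.46 (quartiles 0.30 and 0.68), and 17 rose and 2 fell. Between 100 and 110 Mb it was 0.45, with 15 of 22 higher and none lower, and between 110 and 120 Mb 0.42, with 21 of 36 higher and 1 lower. Between 170 and 180 Mb of chromosome 4 the median of 20 genes was 0.46, with 9 higher and none lower. Among all genes 14.1% were higher. In each of these windows all 3 lines had medians of 0.36 to 0.59.

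Set against InsE, the medians of the same windows were 0.03, -0.02, 0.06 and -0.14. Under all alternatives against control they ran from 0.39 to 0.59 on chromosome 13 and from 0.32 to 0.52 on chromosome 4. Of the 259 windows, 206 had medians within 0.10 of 0. The lowest median was that of chromosome 9 between 130 and 140 Mb (-0.22), with 43 of 110 genes lower and 6 higher. The window of chromosome 11 between 70 and 80 Mb, next to the window that holds FGF3, had a median of -0.17, with 32 of 90 genes lower and 3 higher, and that of 60 to 70 Mb, which holds FGF3, -0.01 over 227 genes. The windows were picked for their medians, and gene copy number was not measured.

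**Figure D5:**
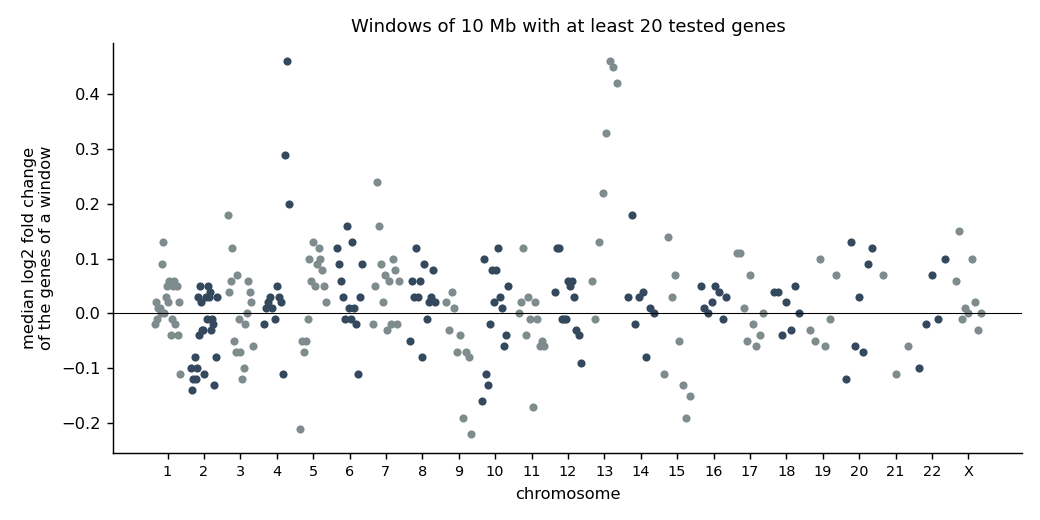
Median log2 fold change of the tested genes in each 10 Mb window (1 point a window, 259 windows with at least 20 tested genes), placed in order along each chromosome. Points near 0.4 to 0.5 appear on chromosome 13 and chromosome 4, and most others lie within 0.10 of 0.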

How the data were processed

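The authors deposited, per library, RSEM expected counts (estimated counts, not normalised between libraries) and TPM (transcript abundance corrected for length and scaled to the same total in each library) for 58381 genes, per the file headers. STAR 2.5.3, RSEM 1.3.2, DESeq2 1.38.3 and hg38 are named per the submitters' processing notes; which annotation and strand setting were used is not given in the sources used here. A further table with 10 value columns was not used, since its column names do not match the labels. Gene positions came from GENCODE 29 (58167 identifiers matched, 56843 with the same version), and promoter windows from RefSeq.

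Expected counts were rounded, scaled by TMM, filtered at a minimum count of 10 and tested by the robust quasi-likelihood method of edgeR 4.0.16 in R 4.3.3 over all 10 libraries, with 5 residual degrees of freedom, two-sided, with Benjamini-Hochberg adjustment over 15554 genes and a threshold of 0.05. Contrasts were the mean of InsF, InsG and InsH against control, any difference among them, and their mean against InsE. Levels are TPM, changes log2 ± SE. The changes were fitted on counts, and TPM is corrected for length, so the 2 can differ in size. For IGF2BP1 and MAP4K1 the TPM give a smaller change than the fit. The SE was taken as the absolute log2 change divided by the square root of the F statistic of the test. It is an approximation, and can be too narrow for genes with few control counts. DESeq2 1.42.0 and limma 3.58.1 on log2(TPM + 1) and log2(TPM + 0.1) were among 24 alternatives for the first contrast. On simulated counts for the mean of the lines against control (15554 genes), edgeR made 9 false calls. It found 65.7%, 81.2% and 98.5% of the genes given changes of 1.5-fold, 2-fold and 4-fold. Only 70, 64 and 66 genes, all with a mean CPM of at least 1, were given these changes. The simulated libraries varied independently, without the replicate difference that the line libraries share. These rates therefore do not carry over to the calls reported above. A count of 0 was read as up to 3 counts, and this floor covers counting error only.

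Replicate 1 and replicate 2 of the lines differed in the same genes (correlations of 0.74 to 0.77 between lines), whereas the control did not share this difference (0.05 to 0.06), so the numbers pair the line libraries and not the control.

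The members and the 36 gene lists were chosen with earlier results of these data known. Genes were named by a rule: up to 14 largest rises and 14 largest falls past the threshold with mean log2 CPM of at least 1 and all 6 line libraries beyond both controls; in each list, the most strongly changed called members (at most 4) or, with none called, the 2 of highest level; all genes of the FGF3 and ANO1 locus; the 5 smallest p among the lines; and, of genes also changed against control, the 5 largest differences from InsE in each direction. Clone, pseudogene, antisense and readthrough names were left out. Part of these is printed, and some called members of the cholesterol list are not reported here. ETV1, CD34, PTPRC, PECAM1, SOX10, FAP and DPT are named as markers, and INSIG1, LSS, SMTN and SRF for their promoter windows. GPR20 and PDGFRA are named as the rises of the GIST list.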

Additional observations from a re-analysis of the deposited data

Results flagged for a closer look

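InsF, InsG and InsH differed by the test among the lines in 14 genes. Of the genes named above, these include CTGF (edgeR adjusted p = 0.000703), SCD (0.00198), SVEP1, IGFBP3 and AMOTL2 (0.00423 each), FLT1 (0.00845) and WISP1 (0.0296), where WISP1 stood at 2.75 in InsF, 2.23 in InsG and 2.33 in InsH on the log2 scale. InsE differed from the mean of the 3 lines in 3762 genes. The log2 differences of the lines from InsE were 4.41 for ABCC9, 4.11 for PBX3, 3.90 for DCN, 3.76 for WISP1 and 3.71 for GFRA1. On the other side they were -2.10 for FGF3, -1.77 for EGR1, -1.67 for RTN4RL2, -1.64 for SELENBP1 and -1.62 for UBE2E2. These 10 genes were picked for this difference among genes changed against control.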

How the results depend on the processing

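Genes called against control numbered 4498. They numbered 2521 and 2568 with limma on log2(TPM + 1) and log2(TPM + 0.1), 1966 with the control libraries summed into 1, and 1746 to 4337 when 1 library at a time was left out, lowest without a control library. With a replicate block there were 6813 calls. A replicate block for the line libraries only gave 8873, in a fit that set the replicate 1 level of the lines against the control. Replicate 1 of the lines alone gave 6858 and replicate 2 alone 5250, with the lines as 1 group. Genes that differed among the lines numbered 14, 35 with DESeq2, 4 with either limma setting, 256 without a filter, 6 with the controls summed, 436 with a replicate block, 4310 with a block within the 8 line libraries, and 1 to 14 when 1 library was left out. Genes that differed from InsE numbered 3762, 2479 with DESeq2, 5942 with a replicate block, 7695 with a block within the 8 line libraries, and 1956 to 3495 when 1 library was left out. The blocks within or for the line libraries, the single replicate numbers and the omission of InsE libraries were chosen after seeing the data. The cause of these shifts was not tested.

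None of the 153 called genes named by the rule reversed under any alternative that tested them, and 104 kept their call in all that did. A gene that a filter removed from an alternative was not counted as lost there. Calls lost numbered 38 without a control library, 33 with limma on log2(TPM + 1), 15 with DESeq2 and 0 with a replicate block. Of the 4498 genes, 1712 and 1919 were called in the same direction without control replicate 1 and 2, and 2944 by DESeq2. With 2 control libraries, small changes and genes of few counts are the least certain.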
